A study of Mus musculus with 12 samples.

Results

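Collagen VI and the fibril-associated collagens are described here in NIH-3T3, an immortalised line of mouse embryonic fibroblasts, across 12 RNA-seq libraries. The 6 genes were listed by name (Col6a1, Col6a2, Col6a3, Col12a1, Col16a1 and Col8a1) and kept if they had a mean of at least 10 counts, which all 6 of the 16300 genes in the deposited table did. The cells received PBS (Con), recombinant stanniocalcin-1, a secreted glycoprotein hormone, at 100 ng/mL (STC1), the cytokine TGF-β1 at 10 ng/mL (TGFb1) or both proteins at these doses (TS), for 24 h in each case. Each group had 3 libraries, which the series text calls biological replicates, all from the 1 cell line, and no batch is given. Library totals ranged from 16867600 to 18521800 expected counts, with the most in Con replicate 1.

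Collagen VI is a microfilament-forming collagen that surrounds cells and links them to the interstitial matrix. Its usual monomer combines the chains encoded by Col6a1, Col6a2 and Col6a3, and the monomers are assembled inside the cell before secretion. Col12a1 and Col16a1 encode collagens XII and XVI, which belong to the fibril-associated collagens with interrupted triple helices (FACITs) and decorate the surface of other fibrils. Col8a1 encodes a chain of collagen VIII, a short-chain collagen that forms networks and is known from vessel walls and the cornea, so it is neither a collagen VI nor a FACIT gene. In textbook accounts TGF-β1 drives fibroblasts to deposit matrix.

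The regions upstream of the 3 collagen VI genes are shown because these genes moved together in the comparisons given further on. That of Col8a1 is shown as a gene called in none. Col16a1 was also called in none, but its window is not printed. RefSeq promoters of build GRCm38.p6 were found for 5 of the 6 genes. The 250 bases before the outermost annotated start are printed in the direction of transcription, with capitals where a searched motif matched on either strand. The windows are chr10:76726045-76726294 for Col6a1, chr10:76623631-76623880 for Col6a2, chr1:90843972-90844221 for Col6a3 and chr16:57754738-57754987 for Col8a1, all on the minus strand.
Col6a1: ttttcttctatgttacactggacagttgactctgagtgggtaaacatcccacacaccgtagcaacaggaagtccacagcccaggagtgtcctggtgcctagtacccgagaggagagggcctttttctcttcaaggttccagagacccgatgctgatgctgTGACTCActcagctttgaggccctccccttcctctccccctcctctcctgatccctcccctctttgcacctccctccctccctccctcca
Col6a2: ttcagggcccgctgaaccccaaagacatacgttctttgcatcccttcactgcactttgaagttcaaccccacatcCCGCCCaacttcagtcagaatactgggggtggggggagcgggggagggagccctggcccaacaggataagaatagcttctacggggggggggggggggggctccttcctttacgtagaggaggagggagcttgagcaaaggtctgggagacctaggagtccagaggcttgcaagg
Col6a3: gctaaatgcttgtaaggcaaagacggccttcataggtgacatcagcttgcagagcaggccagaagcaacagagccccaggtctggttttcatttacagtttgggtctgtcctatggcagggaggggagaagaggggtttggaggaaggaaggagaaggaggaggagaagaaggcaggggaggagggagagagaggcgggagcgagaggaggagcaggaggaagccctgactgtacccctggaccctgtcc
Col8a1: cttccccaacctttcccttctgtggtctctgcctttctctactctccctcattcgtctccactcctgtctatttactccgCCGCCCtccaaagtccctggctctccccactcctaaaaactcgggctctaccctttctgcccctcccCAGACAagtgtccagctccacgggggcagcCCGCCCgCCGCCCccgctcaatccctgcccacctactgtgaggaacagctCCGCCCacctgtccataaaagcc

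The searched motifs were the TATA box TATAAA, the CCAAT box, the GC box GGGCGG, the AP-1 site TGANTCA, the CAGACA element known for SMAD factors and the E-box CACGTG. The AP-1 letters matched once in Col6a1, 90 bases before its start, and were present in 6.85% of the 27025 upstream windows of the same length in the table. The GC box letters matched in Col6a2 and at 4 places in Col8a1, against 33% of all windows. The CAGACA letters matched in Col8a1 alone among the 5 genes, against 17.1% of all windows. The Col6a3 window held none of the 6 motifs, and no window of the 5 genes held TATAAA (13% of all windows) or CACGTG (6.04%). The Col16a1 window held 1 GC box and 1 CCAAT match, the latter found in 34.5% of all windows. These are matches of letters, and no binding was measured. In the same annotation Col6a1 and Col6a2 lie on chromosome 10 with no other protein-coding gene between them, and Col6a3 lies on chromosome 1, Col12a1 on 9, Col16a1 on 4 and Col8a1 on 16.

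The collagen VI genes were abundant transcripts and Col12a1 the lowest of the 6. Levels are in CPM, that is, expected counts scaled to library size with the TMM adjustment named under the processing. For levels compared between genes, CPM were divided by the length in kilobases of the longest protein-coding transcript in GENCODE M21, which may not be the form these cells use. On that scale of level per length, over all 12 libraries, Col6a1 stood at 253 ± 9.78 CPM per kb (SD, n = 12) and Col6a2 at 127 ± 6.72. They were followed by Col16a1 at 58.4 ± 1.84, Col6a3 at 35.7 ± 1.66, Col8a1 at 21.3 ± 0.393 and Col12a1 at 4.92 ± 0.403 CPM per kb. The ranges over libraries of neighbours in this order did not overlap. Col16a1, for example, was never below 55.9 and Col6a3 never above 39.7 CPM per kb.

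The other collagens of these families were weakly expressed or hardly counted. The alternative collagen VI chain genes Col6a4, Col6a5 and Col6a6 had at most 2 counts in any library. Of 10 FACIT genes 7 were in the table and 5 passed the low count filter. Beside Col12a1 and Col16a1 these were Col20a1 at 6.54 CPM over all libraries, Col9a3 at 1.13 and Col22a1 at 0.976 CPM. Their means of 114, 19.7 and 17 counts were above the cut of 10, but they were not among the 6 genes listed by name. Col8a2, the usual partner of Col8a1 in collagen VIII, had at most 1 count, and Col10a1, the short-chain collagen of growth cartilage, at most 11 counts. As for the label of the cells, the fibroblast markers Vim (2289.6 CPM), Pdgfra (1261 CPM) and Prrx1 (1215 CPM) were high, while Fap stood at 0.0388 CPM. The summed level of 7 fibroblast markers lay between 5012 and 5279 CPM over the libraries. That of 6 macrophage markers lay between 8.17 and 10.3 CPM, most of it from Cd14 (5.04 CPM) and Cd68 (3.50 CPM), with Adgre1 at 0.0047 CPM. That of 4 cartilage markers lay between 34.8 and 40.4 CPM, nearly all from Sox9 (37.2 CPM), with Acan and Col2a1 at or below 0.0385 CPM, and that of 4 fat cell markers between 26.2 and 30.7 CPM, nearly all from Lpl (29.4 CPM), with Adipoq at 0.0098 CPM. The epithelial markers in the table summed to at most 0.906 CPM, mostly from Krt8 (0.429 CPM), and the endothelial ones to at most 0.453 CPM. In bulk RNA, fewer cells with a transcript and less of it per cell cannot be told apart.

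**Figure D1:**
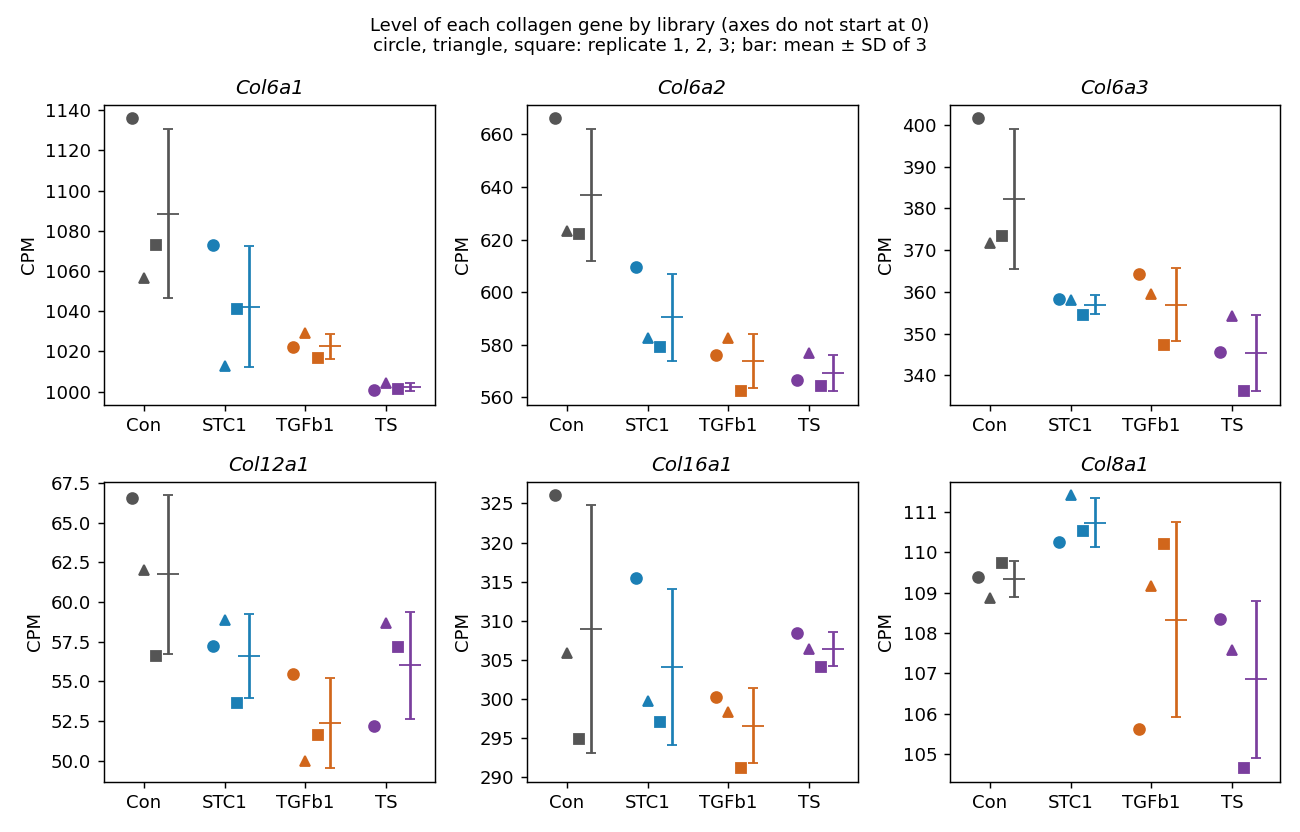
CPM (vertical axes, which do not start at 0) of each of the 6 collagen genes in the 12 libraries, by group (horizontal axis), with marker shapes for replicates 1 to 3 and bars for the mean ± SD of 3. Con replicate 1 is the highest library for 5 of the 6 genes, and the Con libraries lie above all TGFb1 and TS libraries for the 3 collagen VI genes.

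The 3 collagen VI genes and Col12a1 were lower in TGFb1 than in Con libraries, and Col16a1 and Col8a1 did not pass the test. Differences were tested with edgeR's quasi-likelihood test over 11763 genes, and a gene is called here, and said to have risen or fallen, at a Benjamini-Hochberg adjusted p under 0.05. For TGFb1 against Con, 4 of the 6 genes fell and none rose. Over all tested genes 3.99% were called (2.08% fell and 1.9% rose). The 6 genes were chosen with earlier results of these data known, so such shares, here and below, are not an independent comparison. All 6 genes had a fold change below 0, as did 51.1% of all tested genes, and their median log2 fold change was -0.095, beside -0.0022 over all genes tested.

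Col6a2 showed the smallest p among the collagen VI chains. Its level was 666, 623 and 622 CPM in the Con libraries of replicates 1, 2 and 3 and 576, 583 and 563 CPM in the TGFb1 libraries. All 3 treated libraries lay below all 3 controls. The mean level went from 637 ± 25.1 to 574 ± 10.2 CPM (SD, n = 3), a change of -9.95% with a 95% interval from -13.3% to -6.45% (log2 fold change -0.15, SE 0.0275, edgeR adjusted p = 0.000331).

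Col6a1, its neighbour on chromosome 10, stood at 1136, 1057 and 1073 CPM in Con and at 1022, 1029 and 1017 CPM in TGFb1 libraries. The groups did not overlap, and Con replicate 1 was well above the other controls. The log2 fold change was -0.09 (SE 0.0265, edgeR adjusted p = 0.0372), a change of -6.07%. Col6a3, whose chain is the largest of collagen VI, stood at 402, 372 and 373 CPM in Con and at 364, 359 and 347 CPM in TGFb1 libraries. Again the groups did not overlap and Con replicate 1 was the highest. The log2 fold change was -0.099 (SE 0.0287, edgeR adjusted p = 0.0329), a change of -6.65%.

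Col12a1 showed the largest difference of the 6, and also the widest spread. It stood at 66.6, 62.0 and 56.6 CPM in Con and at 55.5, 49.99 and 51.6 CPM in TGFb1 libraries. The highest treated library lay just below the lowest control. The mean went from 61.7 ± 4.996 to 52.4 ± 2.83 CPM (SD, n = 3), a change of -15.3% with a 95% interval from -21.3% to -8.87% (log2 fold change -0.24, SE 0.0521, edgeR adjusted p = 0.00547).

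In each of these 4 genes the TGFb1 libraries lay wholly below the Con libraries, as they did for 10.9% of all tested genes. Col16a1 stood at 326, 306 and 295 CPM in Con and at 300.2, 298 and 291 CPM in TGFb1 libraries. These groups overlapped, and the log2 fold change of -0.059 (SE 0.0297, edgeR adjusted p = 0.284) did not pass. Col8a1 was the steadiest of the 6 genes in Con, at 109.4, 108.9 and 109.7 CPM, and stood at 105.6, 109.2 and 110.2 CPM in TGFb1 libraries. Its log2 fold change was -0.013 with a 95% interval from -0.08 to 0.053 (edgeR adjusted p = 0.903).

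The calls of Col6a1, Col6a3 and Col12a1 depended on single libraries. Without Con replicate 1 only Col6a2 was called (log2 fold change -0.12, edgeR adjusted p = 0.0242), and the values of the others were -0.057 for Col6a1, -0.06 for Col6a3 and -0.18 for Col12a1. Col6a2 was called in all 12 fits that left out a library, Col12a1 in 10, Col6a3 in 9 and Col6a1 in 7. Without TGFb1 replicate 2, too, only Col6a2 was called. The call of Col12a1 was lost there (edgeR adjusted p = 0.0515), that of Col6a3 without TGFb1 replicate 2 or 3, and that of Col6a1 without any 1 TGFb1 library or without TS replicate 1.

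**Figure D2:**
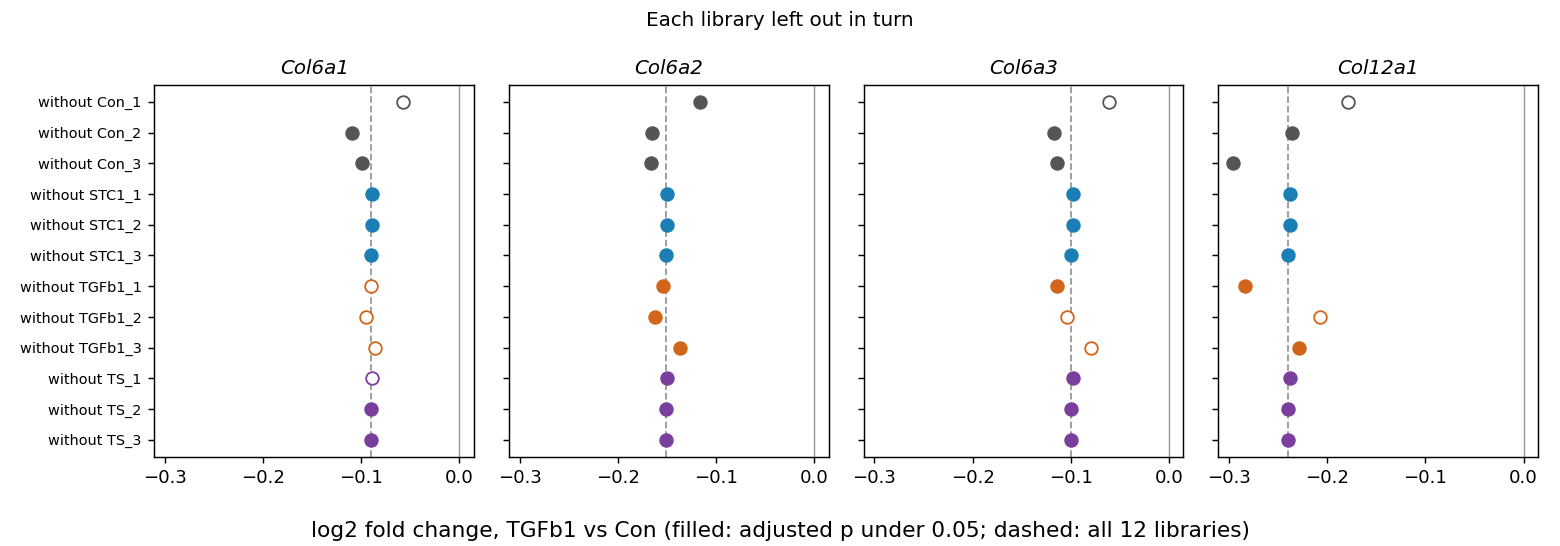
Log2 fold change of TGFb1 against Con (horizontal axes) for the 4 called genes when each of the 12 libraries (vertical axis) was left out in turn; filled points have an adjusted p under 0.05 and the dashed line is the value with all libraries. Without Con replicate 1 all 4 values are nearer to 0, and Col6a2 alone stays filled in every fit.

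Transcript length moved with the same comparison. The transcripts of the 6 genes were between 4100 and 11511 nucleotides long, against a median of 3189 over the tested genes. Across 11482 genes, which are not independent replicates, the log2 fold change of TGFb1 against Con had a Spearman correlation of -0.192 with transcript length and -0.156 with GC content. With a smooth trend on both removed, which gives values without a test, Col6a2 was at -0.11, Col12a1 at -0.20, Col6a1 at -0.055 and Col6a3 at -0.038. Col16a1 was then at -0.0015. The part of length and GC content in the measured falls was not tested further.

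With both proteins together, the 3 collagen VI genes again fell against PBS, while Col12a1 did not pass. In TS libraries Col6a1 stood at 1001, 1004 and 1001 CPM, the tightest of all groups of the 6 genes relative to its mean. Its log2 fold change against Con was -0.12 (SE 0.0265, edgeR adjusted p = 0.00253). Col6a2 stood at 567, 577 and 564 CPM (log2 fold change -0.16, SE 0.0274, edgeR adjusted p = 6.42e-05). Col6a3 stood at 346, 354 and 336 CPM (log2 fold change -0.15, SE 0.0287, edgeR adjusted p = 0.000544). For all 3 genes the TS libraries lay below every Con library.

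Thus 3 of the 6 genes fell and none rose in TS against Con, where 6.06% of all tested genes were called (2.88% fell and 3.18% rose). All 6 had a fold change below 0, against 50.1% of all tested genes. This comparison shares its Con libraries with the previous one. Without Con replicate 1, Col6a2 and Col6a3 were still called and Col6a1 was not (log2 fold change -0.086, edgeR adjusted p = 0.085). Fold changes and transcript lengths had a Spearman correlation of -0.32 here, and with the trend on length and GC content removed the value of Col6a3 went to -0.084.

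Col12a1 stood at 52.2, 58.7 and 57.2 CPM in TS libraries, so 2 of the 3 lay above the lowest control. Its log2 fold change against Con was -0.14 (SE 0.0513, edgeR adjusted p = 0.0968). It was called in 1 of the 12 fits that left out a library, that without Con replicate 3 (log2 fold change -0.20, edgeR adjusted p = 0.00824), and with no low count filter (adjusted p = 0.0267). Its log2 fold change was -0.081 without Con replicate 1 (edgeR adjusted p = 0.4999). Col16a1 stood at 308, 306 and 304 CPM, with a log2 fold change of -0.013 (edgeR adjusted p = 0.866). Col8a1 stood at 108.3, 107.6 and 104.7 CPM, all below the Con libraries, with a log2 fold change of -0.033 (SE 0.0331, edgeR adjusted p = 0.647). Lower without overlap in TS was found for 11.2% of all tested genes.

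Stanniocalcin-1 alone gave no call among the 6 genes with edgeR, although 4 of them had an unadjusted p under 0.05 and 5 had a fold change below 0. Over all tested genes 0.051% were called (0.0255% fell and 0.0255% rose), 50.9% had a fold change below 0 and 1248 had an unadjusted p under 0.05. Col6a2 was nearest, at 609.5, 583 and 579 CPM in STC1 libraries, all below the Con libraries. Its log2 fold change was -0.11 with a 95% interval from -0.17 to -0.055 (edgeR adjusted p = 0.0749). It was called by DESeq2 (adjusted p = 0.00895), with no low count filter (edgeR adjusted p = 0.0271), with the replicate number as a block (edgeR adjusted p = 0.0218) and, among the 12 fits that left out a library, without Con replicate 3 or TS replicate 3. Without Con replicate 1 its log2 fold change was -0.076 (edgeR adjusted p = 0.596).

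Col6a3 stood at 358, 358 and 354 CPM in STC1 libraries, also below all Con libraries, with a log2 fold change of -0.099 (edgeR adjusted p = 0.136). DESeq2 called it too (adjusted p = 0.0457), again with an adjustment over far fewer genes than in edgeR. Its log2 fold change was -0.061 without Con replicate 1 (edgeR adjusted p = 0.756), and with the trend on length and GC content removed -0.049. Lower without overlap in STC1 was found for 7.52% of all tested genes. Col6a1 stood at 1073, 1013 and 1041 CPM, which overlapped with Con (log2 fold change -0.063, edgeR adjusted p = 0.377). Col12a1 stood at 57.2, 58.8 and 53.7 CPM (log2 fold change -0.13, edgeR adjusted p = 0.352). The log2 fold change of Col6a1 was -0.030 and that of Col12a1 -0.068 without Con replicate 1. Col16a1 stood at 315, 299.8 and 297 CPM (log2 fold change -0.024, edgeR adjusted p = 0.841). Col8a1 stood at 110.2, 111.4 and 110.5 CPM, all slightly above Con, and the share of all tested genes lying higher was not counted. Its log2 fold change was 0.018 with a 95% interval from -0.048 to 0.084 (edgeR adjusted p = 0.902).

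**Figure D3:**
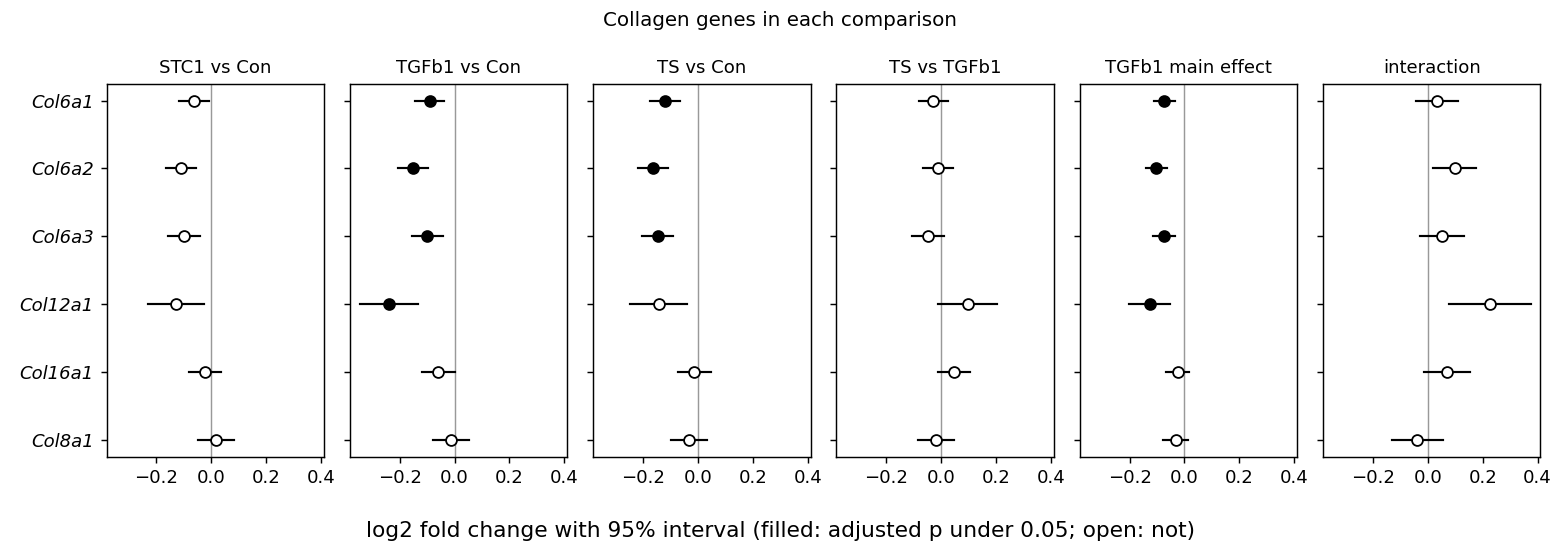
Log2 fold change with its 95% interval (horizontal axes) for the 6 collagen genes (vertical axis) in each comparison; filled points have an edgeR adjusted p under 0.05. Filled points appear in TGFb1 vs Con for 4 genes, in TS vs Con for 3 and in the TGFb1 main effect for 4, and all lie below 0.

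Whether stanniocalcin-1 altered these genes in TGF-β1-treated cells was tested by TS against TGFb1, in which edgeR called none of the 6, with none at an unadjusted p under 0.05. Over all genes edgeR called 0%, with 765 at an unadjusted p under 0.05, and DESeq2 called 1, which was not one of the 6. The values ran from -0.048 for Col6a3 (95% interval from -0.11 to 0.01) to 0.097 for Col12a1 (95% interval from -0.011 to 0.20). Col6a1 was at -0.029 and its TS libraries lay just below its TGFb1 libraries without overlap, as for 5.45% of all tested genes. Col16a1 was at 0.047, with its TS libraries above its TGFb1 libraries, without overlap. The share of all tested genes lying higher without overlap was not counted. Col6a2 was at -0.012 and Col8a1 at -0.019, so 4 of the 6 were below 0, against 49.5% of all tested genes. Over the 3 collagen VI genes the 95% intervals reached from -7.05% at the lowest, for Col6a3, to 3.08% at the highest, for Col6a2.

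The interaction subtracts STC1 against Con from TS against TGFb1. With edgeR it was called for none of the 6 genes, nor for any gene (0%), with 975 genes at an unadjusted p under 0.05. DESeq2 called none either. It was below 0 for 1 of the 6 genes, against 49.2% of all tested genes. Col12a1 was at 0.23 (SE 0.0736, 95% interval from 0.076 to 0.37, edgeR adjusted p = 0.367) and Col6a2 at 0.099 (SE 0.0389, 95% interval from 0.021 to 0.18, edgeR adjusted p = 0.477). These were the 2 genes with an unadjusted p under 0.05. Without Con replicate 1 the interaction was 0.17 for Col12a1 and 0.065 for Col6a2. Col6a1 was at 0.034, Col6a3 at 0.052, Col16a1 at 0.07 and Col8a1 at -0.038. Without the same library Col6a1 was at 0.0016, Col6a3 at 0.014 and Col16a1 at 0.029.

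Averaged over both levels of stanniocalcin-1, 6 libraries with TGF-β1 against 6 without, the same 4 genes fell. Col6a2 fell by 0.10 on the log2 scale (SE 0.0194, edgeR adjusted p = 0.000494), Col6a1 fell by 0.073 (adjusted p = 0.0118), Col6a3 fell by 0.073 (adjusted p = 0.0217) and Col12a1 fell by 0.13 (adjusted p = 0.038). For Col12a1 this average hides a difference between the levels of stanniocalcin-1. Its mean was 61.7 CPM in Con and 52.4 CPM in TGFb1, but 56.6 CPM in STC1 and 56.0 CPM in TS libraries. From STC1 to TS libraries the mean of Col6a1 went from 1042 to 1002 CPM, and that of Col6a2 from 590 to 569 CPM. That of Col6a3 went from 357 to 345 CPM. TS against STC1 was not tested. Over all tested genes 4.7% were called (2.31% fell and 2.39% rose). All 6 genes were below 0, against 50.3% of all tested genes. None of the 4 separated the 6 treated from the 6 other libraries without overlap. Such separation downward was found for 0.816% of all tested genes. DESeq2 did not call Col12a1 (adjusted p = 0.0578), and without Con replicate 1 only Col6a2 was called (log2 fold change -0.084, edgeR adjusted p = 0.00613), as also without STC1 replicate 1. Over the 12 fits that left out a library, Col6a2 was called in 12, Col6a1 in 10, Col6a3 in 6 and Col12a1 in 5. The call of Col6a3 was also lost without STC1 replicate 2, TGFb1 replicate 3, TS replicate 1 or TS replicate 3, and that of Col12a1 without Con replicate 2, STC1 replicate 2, TGFb1 replicate 2 or 3, or TS replicate 1. With the trend on length and GC content removed the value of Col6a3 was -0.035. A test for any difference among the 4 groups, on the same fit, also called these 4 genes, with edgeR adjusted p between 9.73e-05 for Col6a2 and 0.0247 for Col12a1, where 4.11% of all genes were called. It called 1 of them without Con replicate 1.

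The proportions of the 3 collagen VI transcripts differed little between libraries. Of their summed level per length, Col6a1 made up between 60.1% and 61.5% in every library, Col6a2 between 29.99% and 31.3%, and Col6a3 between 8.28% and 8.81%. The ratio of Col6a1 to Col6a2 per length was 1.94 ± 0.0173 in Con (SD, n = 3), 2.003 ± 0.0345 in STC1, 2.02 ± 0.0246 in TGFb1 and 1.998 ± 0.0203 in TS libraries. The 3 Con libraries, between 1.92 and 1.96, lay below the 9 others, between 1.97 and 2.05. The ratio of Col6a1 to Col6a3 per length gave no such separation. It lay between 6.97 and 7.08 in Con, 6.97 and 7.38 in STC1, 6.92 and 7.22 in TGFb1, and 6.99 and 7.34 in TS libraries. The summed collagen VI level was 2108 ± 83.3 CPM in Con, 1989 ± 45.6 in STC1, 1953 ± 23.8 in TGFb1 and 1917 ± 17.3 CPM in TS libraries. These sums and ratios combine chosen genes and are given without a test.

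**Figure D4:**
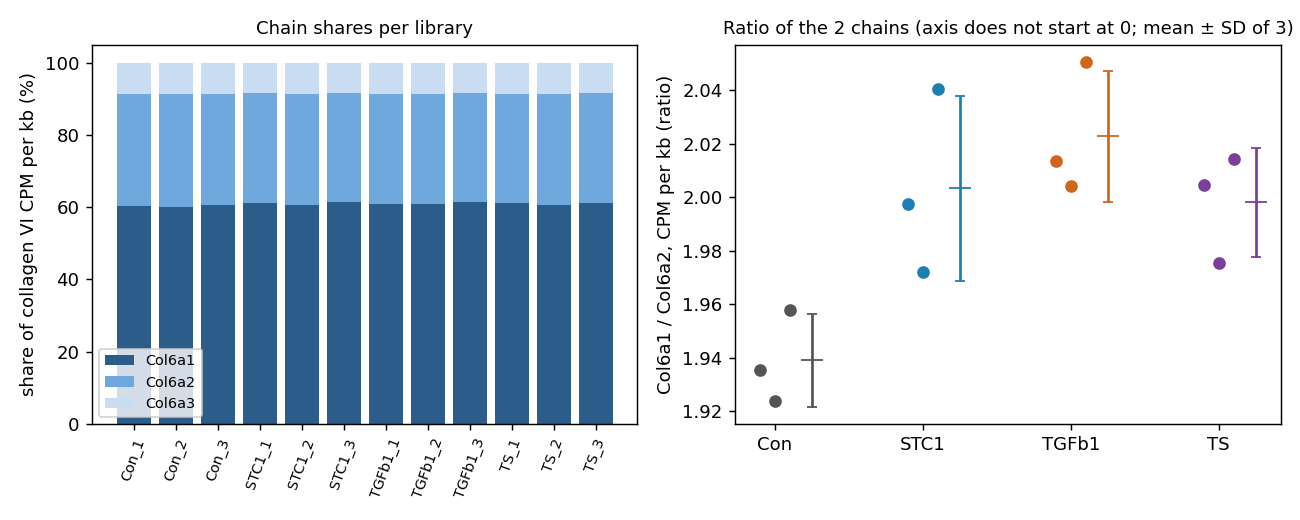
Left, share of each chain in the summed collagen VI level per length (vertical axis, percent) in the 12 libraries. Right, ratio of Col6a1 to Col6a2 per length (vertical axis, not from 0) by group, with points for libraries and bars for the mean ± SD of 3; the Con libraries lie between 1.92 and 1.96 and all others above.

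The called genes for partners and receptors of these collagens moved in both directions, while most of the tested ones had a fold change below 0. Of 22 such genes 18 were tested. In TGFb1 against Con 2 fell and 1 rose, where 3.99% of all tested genes were called (2.08% fell and 1.9% rose). The median log2 fold change of the 18 was -0.084, beside -0.0022 over all genes, and 14 were below 0, against 51.1% of all tested genes. Mmp14, a membrane-bound protease that cleaves matrix collagens, fell by 0.12 on the log2 scale (edgeR adjusted p = 0.0134), and Hspg2, which encodes the basement membrane proteoglycan perlecan, fell by 0.098 (adjusted p = 0.0496). Cspg4, which encodes the NG2 proteoglycan, a cell surface receptor for collagen VI, rose by 0.18 (SE 0.0507, adjusted p = 0.0308). In TS against Con, Mmp14 and Hspg2 fell and Dcn, which encodes the fibril-binding proteoglycan decorin, rose by 0.11 (adjusted p = 0.0206), where 6.06% of all tested genes were called. Cspg4 was at 0.15 there and was not called (edgeR adjusted p = 0.0632). Again 14 of the 18 were below 0, against 50.1% of all tested genes. None of the 18 was called for STC1 against Con or for TS against TGFb1 by edgeR.

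Some genes of fibrillar collagens, whose fibrils the FACITs coat, fell too. Of 9 tested genes 3 fell in TGFb1 against Con and none rose, beside 2.08% and 1.9% of all tested genes, and their median log2 fold change was -0.15. Col1a2 (log2 fold change -0.15, edgeR adjusted p = 0.00184) and Col5a2 (-0.12, adjusted p = 0.00561) had the smallest p, and Col3a1 (-0.28) was the third. In TS against Con 4 fell, these and Col5a1 at -0.14, beside 2.88% of all tested genes. Of 15 tested genes for collagen folding and secretion in the endoplasmic reticulum none fell and 1 rose in TGFb1 against Con, beside the same 2.08% and 1.9%, with a median of -0.028. The riser was P4ha1, a catalytic subunit of prolyl 4-hydroxylase (0.092, adjusted p = 0.0497). Mia3, which helps to load bulky collagens into transport carriers, was at -0.087 (adjusted p = 0.0812) and fell in TS against Con (-0.12, adjusted p = 0.00606). Of the 5 tested FACIT genes 1, Col12a1, fell in TGFb1 against Con and none rose, beside the same 2.08% and 1.9%. Of these 5, 3 were below 0, against 51.1% of all tested genes. Among the minor FACIT genes Col20a1 was at -0.15 (SE 0.114, adjusted p = 0.537) and Col22a1 at 0.27 (SE 0.31, adjusted p = 0.72), neither of which passed.

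Likeness of profile was measured as the Pearson correlation of log2 CPM over the 12 libraries, among 6154 genes with a mean log2 CPM above 5. The libraries share treatments and control libraries, so it is a description without a test. The gene most like Col6a1 was Col6a2 (r = 0.948), and outside the 6 genes the nearest were Nid2 (r = 0.944), which encodes a nidogen of basement membranes, Dag1 (r = 0.937), which encodes the laminin receptor dystroglycan, and Dlk1 (r = 0.935), a preadipocyte factor. For Col6a2 they were Dlk1 (r = 0.958), the neuropilin gene Nrp2 (r = 0.956) and Nid2 (r = 0.956). For Col6a3 they were the transcription factor gene Nfib (r = 0.93), the receptor gene Fgfr1 (r = 0.929) and Nid1 (r = 0.919). For Col12a1 they were the procollagen protease gene Adamts2 (r = 0.923), Atg2a (r = 0.911) and Akap13 (r = 0.903). For Col16a1 they were Zfp865 (r = 0.905), the endocytic receptor gene Lrp1 (r = 0.889) and the paxillin gene Pxn (r = 0.882). For Col8a1 they included Fam126a (r = 0.829) and Trappc8 (r = 0.822). Col8a1 was least like the others, with r between -0.079 for Col16a1 and 0.357 for Col6a1.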

How the data were processed

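Expected counts, which are estimates and can be fractional, were deposited by the authors for 16300 genes without scaling. The unit was read from the values, whose sums differ and of which at least 88.5% per library are whole within 1e-06. Per the labels' protocols, poly-A libraries were made with the MGIEasy kit, and the submitters' processing notes name GRCm39. The aligner, the counter and the use of strand are not given in the sources used here. Gene numbers were matched to RefSeq symbols of GRCm38.p6 for 16177 genes. Promoters come from the same build and transcript lengths from GENCODE M21.

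Counts were rounded, filtered with filterByExpr (11763 genes left), scaled by TMM and fitted with 1 mean per group over all 12 libraries (8 residual degrees of freedom) in edgeR 4.0.16 with R 4.3.3. The quasi-likelihood test was two-sided, with Benjamini-Hochberg adjustment over the 11763 genes. SE is the fold change divided by the root of F. The steps were tested on simulated data. No pair of replicates agreed within sampling noise (chi-square of at least 1.46 per degree of freedom). The p-values measure the spread between these libraries, whose median biological coefficient of variation was 2.24%. The fit shares information on spread between genes, so a p-value does not rest on that gene's own scatter alone. Alternatives were DESeq2 1.42.0, no TMM, other low count filters, only the compared groups, the replicate number as a block, each library left out, and a length and GC trend removed with mgcv 1.9.3. The 6 genes and the lists were chosen with earlier results of these data known. Named were the 6 genes, the 2 other genes with the smallest p of each list and up to 2 called elsewhere, and the 3 genes most like each, of which 1 is not reported here. The single markers and low chains named beside these were chosen after their values were seen.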

Additional observations from a re-analysis of the deposited data

How the results depend on the processing

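Of the 6 genes, the number called was unchanged for TGFb1 against Con (4), TS against TGFb1 (0), the interaction (0) and the test for any difference (4) under every setting tried other than leaving out a library. For STC1 against Con it was 0, but 2 with DESeq2 (adjusted over 1130 genes), 1 with no low count filter and 1 with a replicate block. Leaving out 1 library at a time gave between 0 and 1 for STC1 against Con, 1 and 4 for TGFb1 against Con, 2 and 4 for TS against Con, 1 and 4 for the TGF-β1 main effect and 1 and 4 for any difference. The fit without Con replicate 1 was among the lowest in each. Over all genes, STC1 against Con had 6 calls and between 0 and 44 in these fits, 13 without TMM, 51 with DESeq2, 57 with no filter, 13 at a mean of at least 50 counts, 52 with the block and 22 with only the compared groups. TGFb1 against Con had 469 and between 143 and 561, TS against Con 713 and between 276 and 722 (423 with DESeq2), the main effect 553 and between 332 and 611, and any difference 483 and between 186 and 540. TS against TGFb1 had 0 and between 0 and 6 in the fits that left out a library. It had 4 with no filter and 2 with only the compared groups. The interaction had 0 and between 0 and 2 in the fits that left out a library, 8 with no filter and 5 with the block. Among the fits without a library signs changed in 3, all of genes that were not called: Col16a1 between -0.055 and 0.018 in STC1 against Con and between -0.043 and 0.030 in TS against Con, and Col8a1 between -0.026 and 0.0045 in TGFb1 against Con. With the length and GC trend removed, Col16a1 was at 0.025 in STC1 against Con, 0.039 in TS against Con and 0.0095 in the main effect, and Col6a1 at -0.0076 in the interaction. The cause of these changes was not tested. The replicate numbers were not taken as a pairing, since the labels give none and 6 of 18 same-numbered pairs, not all, had deviations correlated above 0.1. The median correlation was 0.0819 for the same and -0.0384 for different numbers. Deviations from a group mean cancel within the group, so these medians are not independent of each other. A library's deviations correlated best with its own number in 24 of 36 cases, a hint from the data and not from the design. With the block TGFb1 against Con had 656 calls and the main effect 723. Depth limits Col12a1 most: with a mean of 990.25 counts, its counting error alone is 3.18%, against 0.742% for Col6a1.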
